A study of Homo sapiens with 414 samples.

Results

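The IFIT family comprises the interferon-induced genes with tetratricopeptide repeats, of which IFIT1, IFIT2, IFIT3 and IFIT5 are described here as 4 of the 36135 genes in the count table. They were taken by name as the family's members and not picked by a measured value, but with earlier results of these data known. The paralog IFIT1B was set beside them.

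IFIT proteins are made in most cell types after interferon or after sensing of viral RNA. IFIT1 binds RNA whose 5′ cap lacks ribose methylation and blocks its translation, IFIT3 binds and stabilises IFIT1, IFIT2 is linked to the death of cells in which it accumulates, and IFIT5 binds RNA with a 5′ phosphate. Their genes are switched on by ISGF3, a complex in which IRF9 contacts the DNA, and also directly by IRF3 when RNA sensors such as RIGI signal through MAVS. Both routes use an interferon-stimulated response element upstream of the gene.

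The study sequenced single LNCaP cells, an epithelial line from a human prostate carcinoma, 48 h after transfection. Control cells had received a non-targeting siRNA from Dharmacon, and knockdown cells an siRNA against SULT2B1, a sterol sulfotransferase, from IDT. The reagents therefore differ in supplier as well as in target, each arm has 1 siRNA, and what belongs to the target and what to the reagent cannot be told apart. Single live cells were captured on Fluidigm C1 plates in 3 batches that each held both arms.

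Of the 401 cells used, 209 were control cells (76, 66 and 67 in batches 1, 2 and 3) and 192 were knockdown cells (66, 65 and 61). Reads in genes ranged from 169244 to 2353816 per cell with a median of 1150826, and from 71630108 to 84359044 per library after summing the cells of an arm and batch. More than 20% of reads were mitochondrial in 35 control and 8 knockdown cells. SULT2B1 reads numbered 152, 109 and 332 in control and 13, 21 and 0 in knockdown, batch by batch; this difference did not pass edgeR's quasi-likelihood test (adjusted p = 0.268) and passed DESeq2's (adjusted p = 0.0156). All 8 luminal prostate markers were tested and present in every library, and KLK3 and KLK2, both androgen-driven kallikreins, were the 2 that fell (edgeR adjusted p = 0.0416 and 0.0446; 0.154 and 0.0703 with batch as a replicate block). The summed level of 4 blood markers with a row was at most 0.258 CPM (counts relative to library size) in any library, and CD14 was at 0 in all 6. Summed basal, endothelial and fibroblast markers reached at most 1.21, 11.2 and 4.27 CPM. The endothelial marker VWF was read in 35 control and 36 knockdown cells, and the fibroblast marker COL1A1 in 33 and 73. Whether each batch was its own culture is not in the labels. All p-values here thus reflect how much these libraries vary, which may be technical variation.

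The members lie on the plus strand of chromosome 10 (GRCh38, GENCODE 29) within 137.3 kb. From left to right, IFIT2 spans chr10:89283694-89309276, IFIT3 chr10:89327894-89340971, IFIT1B chr10:89378056-89385205, IFIT1 chr10:89392546-89406486 and IFIT5 chr10:89414586-89421001, all protein-coding. LIPA, which encodes lysosomal acid lipase, is annotated on the minus strand at chr10:89213569-89414557. Its annotated span therefore starts just left of IFIT5 and runs leftwards across IFIT1, IFIT1B, IFIT3 and IFIT2.

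Stretches upstream of the IFIT genes are shown because IFIT1 and IFIT3 rose together and because the response element is what the inducing factors bind. RefSeq's promoter windows (GRCh38.p14, plus strand) covered 3 of the 4 members, with 2 start sites for IFIT3. Capitals mark matches to GAAANNGAAA, a core of the response element searched on both strands in the 250 bases before each start; every match read TTTCNNTTTC, the same core on the minus strand. Each stretch has 100 bases and ends where the annotated exons begin, apart from the second IFIT3 stretch, whose match reaches 4 bases into one.
IFIT3, first start, chr10:89327794-89327893: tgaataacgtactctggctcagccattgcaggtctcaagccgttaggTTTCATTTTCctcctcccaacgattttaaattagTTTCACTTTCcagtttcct
IFIT3, second start, chr10:89332388-89332487: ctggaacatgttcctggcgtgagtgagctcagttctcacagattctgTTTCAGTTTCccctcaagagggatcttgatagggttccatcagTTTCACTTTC
IFIT1, chr10:89392446-89392545: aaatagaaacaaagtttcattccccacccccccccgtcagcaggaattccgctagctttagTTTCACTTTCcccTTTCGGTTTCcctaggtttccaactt
IFIT1B, chr10:89377956-89378055: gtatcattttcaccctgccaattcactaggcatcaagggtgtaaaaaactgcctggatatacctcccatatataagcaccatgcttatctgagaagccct

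Each of these IFIT3 and IFIT1 windows held 2 matches, and IFIT1B held 0 in its 250 bases. In IFIT1 the matches lay 116 to 107 and 103 to 94 bases before the start. At IFIT3 they lay 156 to 147 and 122 to 113 bases before the first start, and 94 to 85 and 51 to 42 before the second. The IFIT5 window also held 2, TTTCGGTTTC at 45 to 36 and TTTCGATTTC at 19 to 10 bases before its start; no longer stretch is shown there because a LIPA exon overlaps it on the other strand. At least 1 match was found in 1061 of 35116 RefSeq windows of the same length (3.02%), and 2 or more in 79 (0.225%). A match describes letters in the window and is not evidence of a bound site.

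IFIT1, IFIT2 and IFIT3 had few reads in control libraries and rose to 267, 285 and 599 times that mean CPM in knockdown libraries. IFIT5 was already present in control cells, and its mean was 2.39 times higher in knockdown without passing the main test. IFIT2 had 522, 670 and 389 reads in control libraries 1, 2 and 3 and 175703, 124461 and 188089 in the knockdown libraries. IFIT1 had 232, 332 and 97 against 77092, 56240 and 57134 reads. IFIT3 had 165, 242 and 6 against 111509, 74723 and 83123. For these 3 genes the lowest knockdown library lay far above the highest control library, and control library 3 was the lowest of the control libraries each time. IFIT5 had 1577, 957 and 1777 reads in control and 3064, 4086 and 3734 in knockdown libraries, so its groups also did not overlap but lay close together. Every knockdown library was above every control library for 10.5% of all tested genes, which is the background for these separations.

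On the log2 scale, edgeR put IFIT2 8.16 higher in knockdown (SE 0.296, adjusted p = 0.000223, n = 3 + 3 libraries) and IFIT1 8.06 higher (SE 0.53, adjusted p = 0.00244). IFIT3 was 9.23 higher (SE 1.09, adjusted p = 0.0147), and IFIT5 was 1.25 higher without passing (SE 0.278, adjusted p = 0.106). Thus 3 of the 4 members were called higher and 0 lower, where 0.394% of all tested genes were called higher and 0.384% lower. With batch as a replicate block, which called 0.128% of genes higher, IFIT1 and IFIT2 kept adjusted p-values of 0.0129 and 0.0085, while IFIT3 no longer passed (adjusted p = 0.0724). DESeq2 called all 4 members higher, IFIT5 with an adjusted p of 0.000586, where it called 3.63% of genes higher.

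The IFIT3 call depended on which libraries were included. Its level in control library 3 was 0.0773 CPM, from 6 reads in 1 cell, against 2.25 and 3.31 CPM in the other control libraries. Without control library 3 the edgeR adjusted p was 0.00142. It was 0.0967 without control library 1, 0.0565 without control library 2, and 0.0674, 0.0653 and 0.0591 without knockdown library 1, 2 or 3. The within-batch differences of log2(CPM + 1) were 8.75, 7.87 and 9.82, so the gene stood higher in each of the 3 batches.

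**Figure D1:**
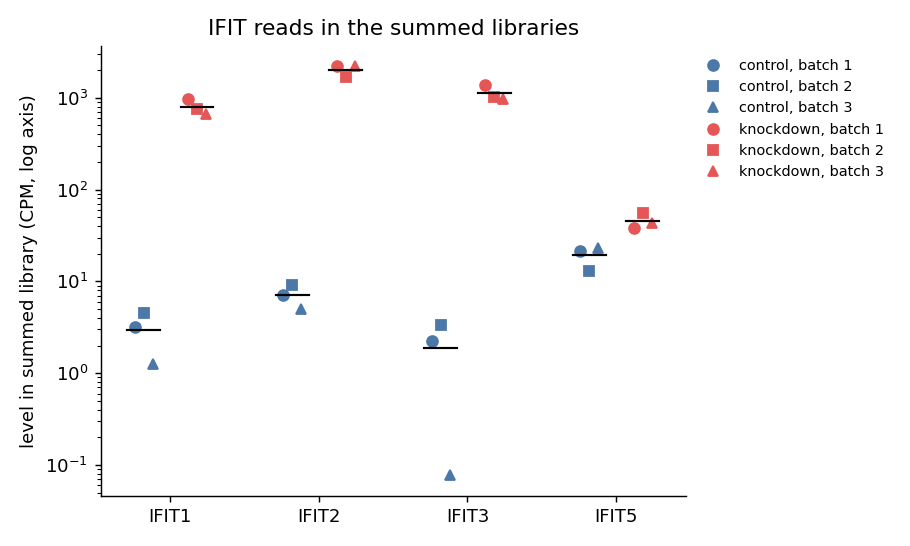
Level of each IFIT gene in the 6 summed libraries, in CPM on a log axis; symbols mark the batch, colours the arm, and horizontal bars the mean of 3 libraries. IFIT2 ranges from 5.01 to 9.16 CPM in control and from 1681 to 2196 CPM in knockdown libraries, while the IFIT5 points of the arms lie close together.

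To compare genes with one another, levels were divided by exon length. In control libraries IFIT5 was the highest member, with 5.34, 3.26 and 5.70 CPM per kb, followed by IFIT2 with 1.73, 2.23 and 1.22. IFIT1 (0.684, 0.984 and 0.271) and IFIT3 (0.851, 1.25 and 0.0293) came last and overlapped each other. In knockdown libraries IFIT5 went from first to last, while IFIT2 stayed above IFIT1. IFIT2 had 535.0, 409.8 and 535.4 CPM per kb and IFIT3 had 527.4, 382.2 and 367.6. These ranges overlapped, but within each library IFIT2 was above IFIT3. IFIT1 followed with 208.7, 164.6 and 144.6, and IFIT5 was last with 9.53, 13.7 and 10.9, below every other member in every library.

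Whether members differed in their response was tested on the difference of log2(CPM + 1) between 2 genes in each library, over 6 pairs. The knockdown-minus-control difference of IFIT5 was smaller than that of IFIT1 by 6.49, of IFIT2 by 6.75 and of IFIT3 by 7.58, each with an exact two-sided permutation p of 0.1 (adjusted 0.12) and in the same direction within all 3 batches. A p of 0.1 is the smallest that 3 libraries against 3 can give, so no pair could pass 0.05. IFIT1 and IFIT2 differed by -0.26 (exact permutation p = 0.4), with within-batch values of -0.22, -0.27 and -0.30; with a pseudocount of 5 in place of 1 this was -0.74 (exact permutation p = 0.1), and with 0.1 it was 0.00343. The IFIT3 difference exceeded that of IFIT1 by 1.09 on this scale (IFIT1 minus IFIT3, -1.09) and that of IFIT2 by 0.823 (IFIT2 minus IFIT3, -0.82), with an exact permutation p of 0.1 for each. Both values moved with the pseudocount: IFIT1 minus IFIT3 was -1.78 with 0.1 and -0.72 with 5, and IFIT2 minus IFIT3 was -1.78 and 0.0241. IFIT2 minus IFIT3 was also -0.42 without control library 3, and IFIT1 minus IFIT2 was -0.081 without knockdown library 3 and -0.43 without control library 3.

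IFIT1B, the paralog between IFIT3 and IFIT1, had 0 reads in all 209 control cells and 6 reads in 1 knockdown cell of batch 1. It was at 0 in the other knockdown libraries. IFIT1P1, a processed pseudogene of IFIT1 on chromosome 13, had 2, 0 and 6 reads in control and 0 in all knockdown libraries. Reads shared between near-identical copies can be lost or misplaced in such counting, and neither copy had reads at a level near those of IFIT1.

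The rise of IFIT1, IFIT2 and IFIT3 was seen as reads in most knockdown cells together with very high levels in a few. Whether low counts include reads carried over from other cells of a plate was not tested and cannot be told from gene counts, which bears on every share of cells with at least 1 read below. IFIT2 was read in 12, 6 and 6 of the control cells of batches 1, 2 and 3 and in 66, 61 and 56 of the knockdown cells, which is every cell of knockdown batch 1. For IFIT1 the counts were 6, 5 and 3 control cells and 64, 49 and 48 knockdown cells, and for IFIT3 they were 5, 6 and 1 against 60, 53 and 49. IFIT5 was read in 28, 17 and 22 control cells and in 36, 42 and 39 knockdown cells. The highest control share of IFIT5, 36.8% in batch 1, has an exact (Clopper-Pearson) 95% interval of 26.1% to 48.7%, and the lowest knockdown share, 54.5% in the same batch, one of 41.8% to 66.9%, so these overlap. Such intervals cover counting error only.

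The shares were higher in knockdown by 83.9 percentage points for IFIT2 (from 11.3 ± 3.91% to 95.2 ± 4.27%, SD, n = 3), 78.5 for IFIT3, 77.0 for IFIT1 and 29.2 for IFIT5, and no share in control reached the lowest in knockdown. These differences had an exact two-sided permutation p of 0.1 each, the smallest possible, so none could pass 0.05. These differences were smaller under stricter counting, most of all for IFIT3. With at least 5 reads required, they were 46.1 points for IFIT3, 60.1 for IFIT1 and 70.3 for IFIT2, and the IFIT3 share was 49.95 ± 2.38% of knockdown cells (SD, n = 3). After each cell was thinned to 100000 reads, they were 47.0, 53.9 and 59.2 points in the same order. In the thinned cells the IFIT5 share was 25.0%, 15.2% and 25.4% in control and 36.4%, 55.4% and 44.3% in knockdown cells, again without overlap. With at least 5 reads it was 26.3%, 19.7% and 23.9% against 45.5%, 58.5% and 47.5%. Median reads per cell were 1057697 to 1163883 in the control and 1092399 to 1406270 in the knockdown libraries.

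**Figure D2:**
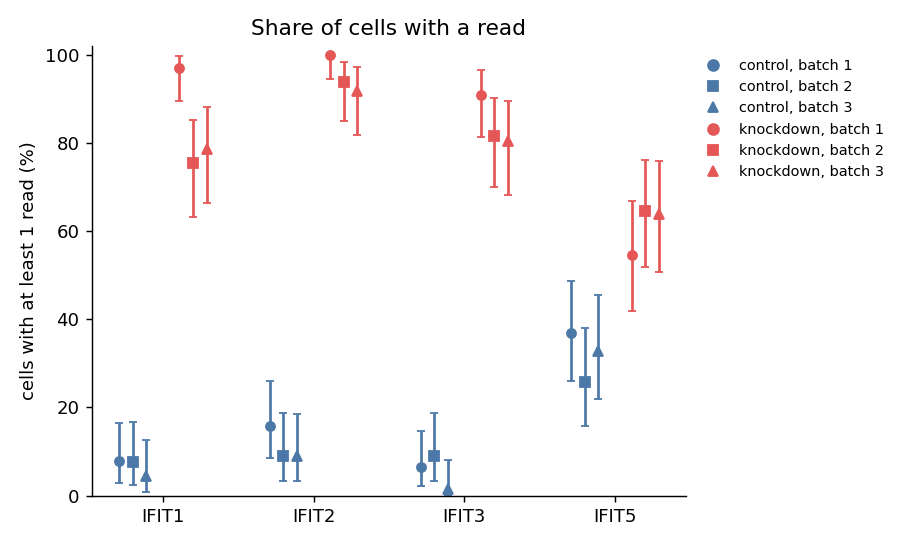
Percent of cells with at least 1 read of each IFIT gene in each arm and batch, with exact binomial 95% intervals; symbols mark the batch and colours the arm. IFIT2 reads are in 8.96% to 15.8% of control and 91.8% to 100% of knockdown cells, and IFIT5 is the member with the highest control shares and the lowest knockdown shares.

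Levels in positive knockdown cells ranged from low to very high, and only for IFIT3 did most of them lie under 10 CPM. Of 192 knockdown cells, 9 had no IFIT2 read, 68 had a level above 0 and under 10 CPM, 54 lay from 10 to under 100 CPM, 34 from 100 to under 1000 CPM and 27 at 1000 CPM or more. IFIT3 was more divided, with 91 cells above 0 and under 10 CPM, 28 and 19 cells in the next classes and 24 at 1000 CPM or more. IFIT1 had 56, 44, 40 and 21 cells in the same 4 classes. Only 1 knockdown cell reached 1000 CPM of IFIT5, and 0 of 209 control cells did so for any member, which allows a share of up to 3.95%, 4.55% and 4.48% in the 3 control batches, taken as 3 cells over the cells of the batch. Fewer than 5 reads stood behind 66 of the 162 cells with an IFIT3 read, 39 of 161 for IFIT1, 31 of 183 for IFIT2 and 20 of 117 for IFIT5. Without molecular identifiers, the number of RNA molecules behind such a count is not known.

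Among cells that had a read, the medians of the arms overlapped for every member. The median level of IFIT2-positive cells was 27.6, 68.9 and 22.6 CPM in control and 46.7, 13.0 and 34.0 CPM in knockdown, so the groups overlapped. For IFIT3 they were 4.08, 23.5 and 7.43 against 4.62, 14.8 and 5.07 CPM, and for IFIT5 29.4, 10.9 and 34.7 against 19.8, 48.6 and 31.5 CPM. IFIT1 had 3.54, 51.3 and 2.53 against 27.3, 43.2 and 33.5 CPM. On the log2 scale the medians differed by 2.14 for IFIT1, 0.42 for IFIT2, -0.33 for IFIT3 and 0.49 for IFIT5, with exact two-sided permutation p-values of 0.4, 0.5, 0.7 and 0.6. These values moved with depth and with single libraries. The IFIT1 difference was 1.03 after thinning and between 1.34 and 3.51 with 1 library left out, and the IFIT2 difference was 0.11 after thinning and between 0.0361 and 0.957. Those of IFIT3 and IFIT5 changed sign without control library 2 (0.351 and -0.0228). Cells with a read are a different part of the cells in the 2 arms. For every member a larger share of knockdown than of control cells qualified, for IFIT5 117 of 192 against 67 of 209. The control medians rest on 1 to 12 cells per library for IFIT1, IFIT2 and IFIT3.

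The reads themselves lay in few cells. In knockdown library 3 a single cell held 56.0% of all IFIT2 reads, against 17.0% and 19.5% for the top cell of libraries 1 and 2. The top cell held 22.2%, 30.5% and 46.2% of IFIT1 reads and 22.2%, 22.6% and 49.96% of IFIT3 reads. Between 1 and 4 cells were enough for 50% of the reads of IFIT1, IFIT2 or IFIT3 in every knockdown library, out of 61 to 66. Knockdown library 3 was thus the one with the largest top share of each of these 3 genes. For IFIT5 the top cell held 27.5%, 9.89% and 13.4%, and 3, 7 and 6 cells held 50%.

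The 10% of cells with the most reads, rounded up to 7 cells in each knockdown library, held 84.0%, 94.5% and 90.2% of IFIT1 reads, 79.7%, 94.8% and 97.4% of IFIT2 reads and 87.6%, 94.5% and 97.8% of IFIT3 reads. For IFIT5 the share was 81.9%, 50.8% and 59.2% in knockdown and 73.9%, 92.4% and 83.8% in control libraries, so the arms overlapped. In control libraries the same top 10% held between 96.7% and 100% of IFIT1, IFIT2 and IFIT3 reads, which follows from how few control cells had a read. The difference of knockdown from control was -10.4 points for IFIT1, -8.29 for IFIT2, -6.71 for IFIT3 and -19.4 for IFIT5, with exact two-sided permutation p-values of 0.1, 0.2, 0.1 and 0.2 (adjusted 0.2 each). Single knockdown libraries moved these values. Without library 1 they were -2.82 for IFIT2, -3.85 for IFIT3 and -28.4 for IFIT5, and without library 2 the IFIT5 value was -12.8.

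The typical knockdown cell therefore looked different from the library sum. Over all knockdown cells of batches 1, 2 and 3 the median IFIT2 level was 46.7, 10.1 and 20.3 CPM, against library levels of 2194, 1681 and 2196 CPM and maxima of 37830, 28930 and 78420 CPM. The median IFIT3 level was 3.99, 5.37 and 2.83 CPM and its maximum 25520, 23840 and 30930 CPM. The upper quartile of IFIT3 was 104.5, 68.0 and 23.5 CPM. IFIT5 in batch 2 had the highest median of its batches, 17.6 CPM, which exceeded the median of IFIT1 and of IFIT2 there. With the cell richest in IFIT reads removed from each library, an alternative chosen after seeing the data, edgeR's log2 difference was 7.71 for IFIT1, 8.07 for IFIT2, 8.74 for IFIT3 and 1.41 for IFIT5, and the first 3 still passed (adjusted p = 0.0223 for IFIT3).

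**Figure D3:**
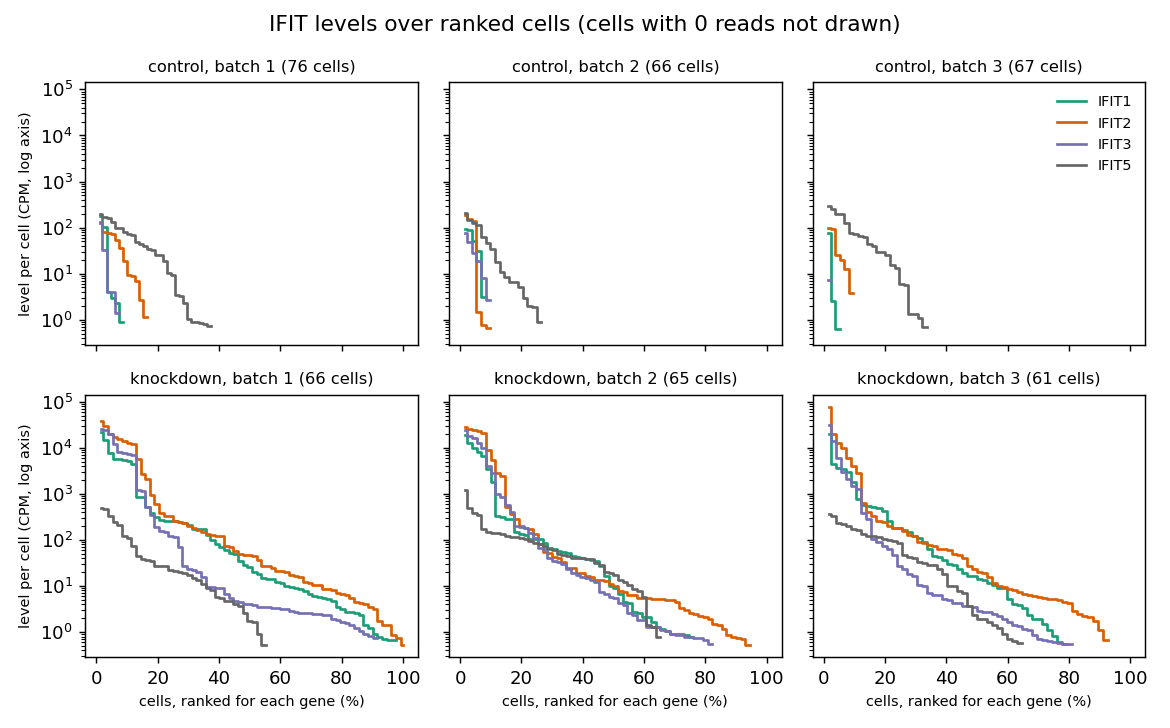
Level per cell in CPM (log axis) against the rank of the cell for that gene, as percent of the cells of the library; each panel is 1 arm and batch, lines are the IFIT genes, and cells with 0 reads are not drawn. In knockdown panels the lines of IFIT1, IFIT2 and IFIT3 fall from their maxima to under 100 CPM within the upper part of the cells and then continue at low levels, while IFIT5 starts at 493.5, 1208 and 371.9 CPM.

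Most knockdown cells had reads of several members. Of 192 knockdown cells, 88 had reads of all 4 members, 73 of 3, 22 of 2, 8 of 1 and 1 of none. Of 209 control cells, 0 had reads of all 4, 2 had reads of 3, 19 of 2, 73 of 1 and 115 of none. At least 1 of IFIT1, IFIT2 and IFIT3 was read in 191 knockdown and 42 control cells, and all 3 together in 138 and 0. Over all control cells, IFIT1 was read in 14, IFIT2 in 24, IFIT3 in 12 and IFIT5 in 67. Among them, IFIT1 and IFIT2 were both read in 2 cells, IFIT2 and IFIT3 in 2, and IFIT1 and IFIT3 in 4. IFIT5 was read together with IFIT1 in 5 control cells, with IFIT2 in 9 and with IFIT3 in 3.

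**Figure D4:**
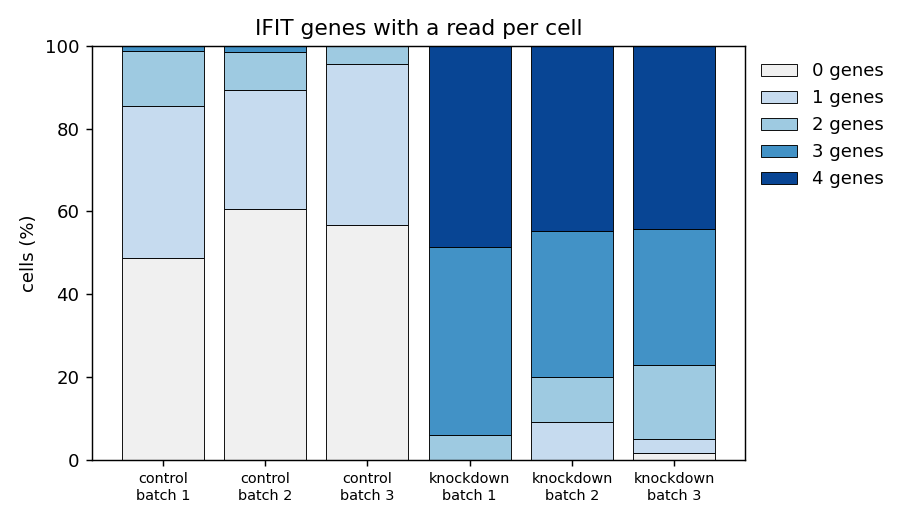
Percent of cells with reads of 0, 1, 2, 3 or 4 of the IFIT genes, stacked for each arm and batch. Cells with all 4 genes make up 48.5%, 44.6% and 44.3% of the knockdown cells of batches 1, 2 and 3 and 0% of the control cells.

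Across the cells of a knockdown library, Spearman's rho of log2(CPM + 1) was highest between IFIT2 and IFIT3, with a mean of 0.52 over the 3 batches (0.471 to 0.559). It was 0.499 between IFIT1 and IFIT2 (0.403 to 0.578) and 0.457 between IFIT1 and IFIT3 (0.355 to 0.516). The pairs with IFIT5 had means of 0.321 with IFIT1, 0.336 with IFIT2 and 0.349 with IFIT3. In control cells the means lay between -0.0462 and 0.203, over data that are mostly 0. These are descriptions over 61 to 76 cells that share a plate, an amplification and a depth, and carry no p. Thinning to 100000 reads gave means of 0.491 for IFIT2 with IFIT3, 0.529 for IFIT1 with IFIT2 and 0.463 for IFIT1 with IFIT3. The order of the first pairs thus changed, while all these means stayed above those with IFIT5 (0.297 to 0.327). Within batch 1 this did not hold. There rho was 0.355 for IFIT1 with IFIT3, 0.355 for IFIT1 with IFIT5 and 0.367 for IFIT2 with IFIT5. After thinning these were 0.367, 0.423 and 0.379. In batches 2 and 3 every pair without IFIT5 was above every pair with it.

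**Figure D5:**
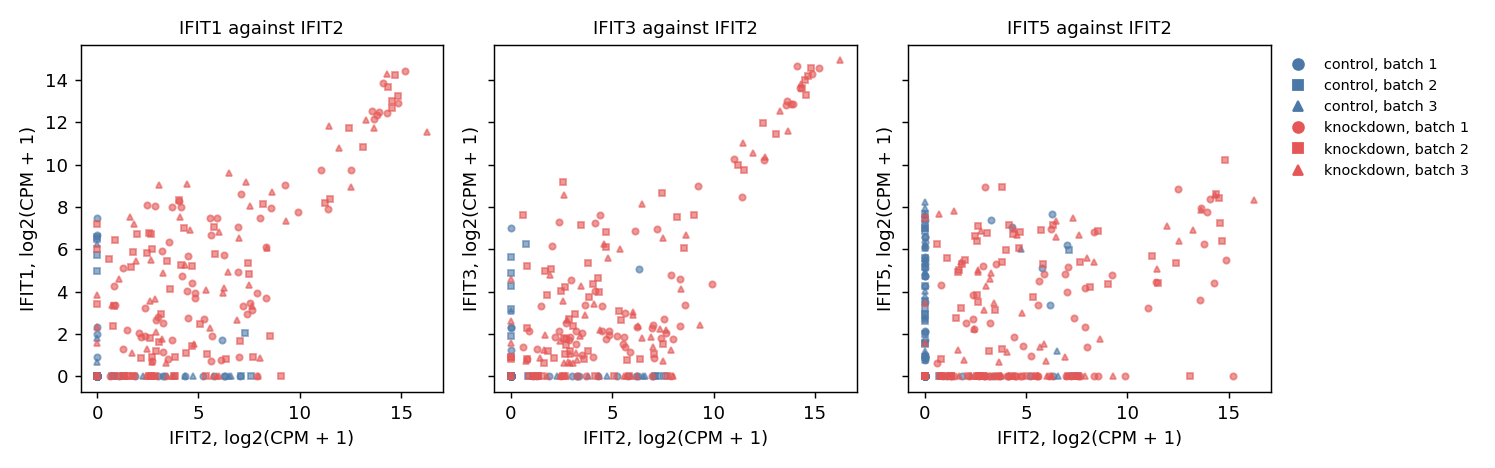
Level of IFIT1, IFIT3 and IFIT5 against IFIT2 in each cell, as log2(CPM + 1); symbols mark the batch and colours the arm. Cells high in IFIT2 are also high in IFIT1 and IFIT3 and form the upper right arm, whereas IFIT5 in the same cells ranges from 0 to its maximum.

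At the upper end IFIT1, IFIT2 and IFIT3 shared most of their cells. These top cells were ranked by CPM. Of the 7 cells with the highest IFIT2 level in a knockdown batch, 6, 7 and 6 in batches 1, 2 and 3 were also among the top 7 of both IFIT1 and IFIT3. Only 2, 4 and 3 were in the top 7 of all 4 members. In no batch was the single cell with the most reads the same for IFIT1, IFIT2 and IFIT3. The cell with the most IFIT2 reads in each batch had 37830, 23660 and 78420 CPM of IFIT2 and 23910, 16510 and 30930 CPM of IFIT3, but 0, 344.0 and 323.2 CPM of IFIT5. IFIT reads made up 8.35%, 4.71% and 11.3% of all gene reads of these 3 cells.

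Interferon genes were read in part of the same cells. A read of IFNB1, IFNL1, IFNL2 or IFNL3 was found in 19, 8 and 27 knockdown cells of batches 1, 2 and 3. Those cells held 74.7%, 81.3% and 89.6% of IFIT2 reads, but 45.2%, 35.7% and 60.7% of IFIT5 reads. Cells without such a read were nonetheless positive for IFIT2 in 100%, 93.0% and 88.2% of cases, with medians of 37.1, 6.51 and 24.9 CPM. In cells with one, the IFIT2 median was 146.4, 22280 and 15.9 CPM, so in batch 3 it lay below that of the cells without. Among the top 7 IFIT2 cells by CPM, 5, 5 and 6 had an interferon read.

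The genes whose levels over cells were most like those of each member were looked up among 11204 genes with a read in at least 20% of the cells of every knockdown batch, by the mean rho over 3 batches. For IFIT1 they were ISG15 (0.604), IFI6 (0.589), IFIT2 (0.499), DDX60 (0.482) and IFITM3 (0.476). For IFIT2 they were IFIT3 (0.52), IFIT1 (0.499), OASL (0.453), IFI6 (0.451) and TRANK1 (0.444), and for IFIT3 they were IFIT2 (0.52), RIGI (0.47), IFIT1 (0.457), LIPA (0.45) and OASL (0.443). ISG15 is a ubiquitin-like protein and OASL a relative of the oligoadenylate synthetases. For IFIT5 they were APOL2 (0.418), TRANK1 (0.384), PMAIP1 (0.364), HLA-B (0.358) and OAS1 (0.351), with TRANK1 shared with IFIT2; PMAIP1 encodes a BH3-only death protein and HLA-B a class I antigen. IFIT5 itself ranked 31 for IFIT1, 27 for IFIT2 and 19 for IFIT3, and in the other direction IFIT3, IFIT2 and IFIT1 ranked 6, 9 and 16 for IFIT5.

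LIPA was the only gene outside the family in these lists that overlaps it on the chromosome. It also ranked 9 for IFIT1 and 7 for IFIT2, but 82 for IFIT5. LIPA exons take 460 bases within the span of IFIT2 and 293 within that of IFIT3. LIPA shares 65 exonic bases with IFIT2 and 0 with IFIT3. Its level was 77.0, 71.9 and 57.3 CPM in control and 89.5, 122.3 and 86.5 CPM in knockdown libraries, which did not overlap, and edgeR gave 0.53 on the log2 scale (SE 0.193, adjusted p = 0.289). The sources used here do not give the strand setting of the counting. Reads from IFIT2 or IFIT3 RNA that fall on the LIPA exons among them therefore cannot be told from LIPA reads. Their part in the likeness was not tested.

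Within 300 kb of the cluster the table holds 15 other genes, of which 10 were tested, and FAS, which encodes a death receptor, was the 1 that passed. It had 25.3, 23.8 and 25.1 CPM in control and 100.0, 107.0 and 95.3 CPM in knockdown libraries (log2 difference 2.03, SE 0.146, edgeR adjusted p = 0.00263). KIF20B, a mitotic kinesin, was at -1.36 (adjusted p = 0.222), and ACTA2 at 2.19 (adjusted p = 0.331). CH25H, an interferon-inducible sterol hydroxylase in other cells, had 1 read in all 6 libraries, and SLC16A12, a transporter gene, had at most 53 reads in a library and was not tested.

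Genes upstream of the IFIT family and others of the same response were counted on fixed lists, beside a median log2 difference of 0.01 over all 20326 genes tested. Among RNA sensors, 4 of 10 tested genes rose and 0 fell, with a median of 3.13. RIGI, the sensor of RNA with a 5′ triphosphate, went from 19.7, 15.6 and 13.7 to 413.8, 369.1 and 333.9 CPM (4.51, SE 0.187, edgeR adjusted p = 0.000223). OAS2 (9.23), IFIH1 (3.35) and OAS3 (1.64) were the others. With the replicate block only RIGI kept its call in this list (adjusted p = 0.00352).

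Among the factors and kinases that switch on IFIT genes, IRF9, the DNA-binding part of ISGF3, rose from 0.122, 0.219 and 0.129 to 7.14, 8.35 and 2.70 CPM (5.26, edgeR adjusted p = 0.0228). It did not pass with the block (adjusted p = 0.0988). Other genes named by size were IRF1 at 4.81 (adjusted p = 0.108) and IRF7 at 2.70 (adjusted p = 0.102). STAT2, which also belongs to ISGF3, was at 0.33 (adjusted p = 0.702).

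Among interferons, receptors and receptor kinases 4 of 9 rose and 0 fell, with a median of 0.44. All 4 were ligands. IFNB1, IFNL2 and IFNL3 had 0 reads in every control library, and IFNL1 0, 0.0410 and 0.103 CPM. In knockdown libraries IFNB1 had 25.9, 20.5 and 28.8 CPM and IFNL1 26.4, 12.3 and 84.0 CPM. With the replicate block IFNL1 alone passed (adjusted p = 0.0353). No receptor passed; IFNLR1, the specific chain of the lambda interferon receptor, was at 0 in all control libraries and at most 0.0270 CPM in knockdown libraries and was too low to be tested.

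Of other interferon-stimulated effectors, 10 of 19 tested genes rose and 0 fell, with a median of 4.02, and 5 kept their call with the block. RSAD2, an enzyme that makes a chain-terminating nucleotide, had 0 reads in control and 77.5, 64.6 and 41.7 CPM in knockdown libraries. Among the called genes, XAF1, IFI27 and IFI6 had the next largest values, IFI6 with 3.37, 4.17 and 5.57 against 147.9, 161.9 and 185.6 CPM. MX1, a GTPase induced by the same element in many cells, was at 0.24 (adjusted p = 0.939), with 6.87, 1.44 and 5.85 CPM in control and 7.95, 6.27 and 2.47 in knockdown libraries, so its groups overlapped. MX1 and MX2 lie outside the naming rule and were chosen after their values were seen; MX2 was at -0.04.

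Genes that restrain the response or that meet IFIT proteins at the RNA did not pass edgeR's test. Of brakes on interferon signalling 0 of 4 were called (median 0.24), with USP18, which blocks the type I receptor, at 1.90 (adjusted p = 0.0714). Of cap enzymes and cap-binding proteins 0 of 8 were called (median 0.01). RNMT had the largest difference of this list, at -0.84 (edgeR adjusted p = 0.112). Its level was 58.4, 56.6 and 65.9 CPM in control and 28.05, 40.4 and 32.4 CPM in knockdown libraries. CMTR1, which adds the ribose methyl group that IFIT1 reads, was at 0.77 (edgeR adjusted p = 0.623). CMTR1 had 1.47, 2.91 and 3.65 CPM in control against 3.31, 4.21 and 6.14 CPM in knockdown libraries. Of the subunits of eIF3, the initiation factor that IFIT1 and IFIT2 bind, 0 of 13 were called (median 0.03), with EIF3G at 0.58 (adjusted p = 0.157) and EIF3B at 0.29 (adjusted p = 0.637). DESeq2 passed USP18 (adjusted p = 1.39e-05), EIF3G (adjusted p = 0.0196) and RNMT (adjusted p = 0.00193). It also passed PIAS1, a brake at -0.73 in edgeR (DESeq2 adjusted p = 0.0202). A p that misses the threshold does not show that these levels were equal.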

How the data were processed

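The deposited counts are whole reads per gene and cell, made by the authors from libraries with no molecular identifiers. The tools listed in the submitters' processing notes are edgeR 3.2.2, HTSeq 0.6.1, TopHat2 2.1.0 and FastQC 0.11.3, with build GRCh38.p3; the sources used here give neither their order nor the annotation release nor the strand setting. Of 414 samples, the 401 single cells with a matching column were used, and 4 columns of values were not. Capture sites with several cells were excluded under the microscope, per the labels' protocols, and no doublet caller was run.

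Because cells of a library are no replicates, counts were added up by arm and batch. The main test was edgeR 4.0.16 (quasi-likelihood, robust, TMM, filterByExpr with a minimum count of 10, R 4.3.3), adjusted by Benjamini-Hochberg over 20326 genes; DESeq2 1.42.0 was an alternative. The labels call the shared number a batch, so it pairs the libraries; deviations of same-numbered libraries correlated by 0.078, 0.000547 and 0.000233. The edgeR script was tested on simulated data. Per-cell CPM uses the cell's total gene reads. Per-cell values were reduced to 1 per arm and batch and compared by exact two-sided permutation tests (Python 3.11.15, numpy 2.4.6, scipy 1.17.1, pandas 2.3.3, matplotlib 3.10.9), with a pseudocount of 1 and thinning to 100000 reads.

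The text names the 4 members, IFIT1B, SULT2B1, the 5 most similar genes per member, genes within 300 kb and up to 4 genes per list, called ones first and then by size; other names were chosen after their values were seen. One list gene is not reported here, nor is the count of its list. Members and lists were chosen with earlier results of these data known. Alternatives comprised the replicate block, scaling, the count filter, pseudocounts, depth, mitochondrial cells, weight per cell and leaving out each library.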

Additional observations from a re-analysis of the deposited data

How the results depend on the processing

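IFIT1 and IFIT2 passed edgeR's test under every alternative run, including each library left out. Over the fits without 1 library the log2 differences were 7.69 to 8.50 for IFIT1 and 7.95 to 8.38 for IFIT2. With equal weight per cell they were 8.20 and 8.59. IFIT3 lost its call with the replicate block (9.70, adjusted p = 0.0724), without a filter on low counts (9.23, adjusted p = 0.0720) and in 5 of 6 fits without 1 library (8.66 to 9.93 over all 6, adjusted p 0.00142 to 0.0967). IFIT5 passed with DESeq2 only (1.26, adjusted p = 0.000586). The replicate block changed no other call of a member.

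The other comparisons rest on exact tests that cannot go below 0.1, or 0.25 within batches, so their side of the threshold says nothing about stability. In cells with a read, the level difference of IFIT3 turned from negative to 1.07 after thinning, and ranged from -0.89 to 0.351 without 1 library, being positive without control library 2. That of IFIT5 ranged from -0.0228 to 0.821, negative without the same library. The difference between IFIT1 and IFIT2 was 0.00343 with a pseudocount of 0.1 and -0.74 with 5, and that between IFIT2 and IFIT3 was 0.0241 with a pseudocount of 5. Over cells with reads of both genes, the mean rho was 0.569 for IFIT2 with IFIT3, 0.409 for IFIT2 with IFIT5 and 0.259 for IFIT3 with IFIT5. The cause of these shifts was not tested.

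Amplified reads without molecular identifiers are not independent molecules, so low counts per cell, which make up many of the IFIT3-positive cells, carry little precision. The 2 siRNAs come from different suppliers.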
